A study of Homo sapiens with 12 samples.

Results

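Early replicating regions (ERRs) near the ends of human chromosomes were described in U2OS-MycER cells with and without active Myc and with and without silencing of CDK12. An ERR is a stretch of DNA labelled by cells that have just entered S phase, and a region counted as lying near an end when its whole length fell within 5 Mb of the end on 1 of 15 autosomes (2, 3, 5, 6, 7, 8, 9, 10, 12, 14, 15, 16, 20, 21 and 22). The short arms of the acrocentric chromosomes 14, 15, 21 and 22 were not counted as ends. The interior of these chromosomes was measured from the first region in any list. This gave 26 ends, 11 of short arms (p) and 15 of long arms (q), over 130 Mb. Of all regions in the deposited lists, 242 of 3874 for shNT, 274 of 4653 for shNT + OHT, 312 of 4896 for shCDK12 and 286 of 4762 for shCDK12 + OHT were near an end. The choice used position only, so that width and reads were free to differ from those of the chromosome interiors. Long-arm ends, however, were set at the outermost region of any list. Each long-arm zone thus begins at a region, and its covered length was in part bound by the choice.

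U2OS is a human osteosarcoma line, and MycER is Myc fused to a hormone-binding domain that responds to 4-hydroxytamoxifen (OHT). Every group carried MycER and a short hairpin RNA induced with 1 µg/mL doxycycline, either a non-targeting control (shNT) or one directed at CDK12 (shCDK12), which phosphorylates elongating RNA polymerase II. In shNT + OHT and shCDK12 + OHT the fusion was activated with 300 nM OHT for 40 h, and shNT and shCDK12 are the same cells without it. All cells were arrested with 100 ng/mL nocodazole for 8 h, shaken off and released for 24 h into 25 µM EdU and 2 mM hydroxyurea, after which labelled DNA was sequenced (EdU-HU-seq). The labels name 3 samples per condition, 12 in all, but the deposited lists hold 1 merged list per condition. None of the differences therefore has a replicate check or a test, and 95% Wilson intervals cover counting error only. Reads inside called regions numbered 19042128 for shNT, 51968675 for shNT + OHT, 14926387 for shCDK12 and 30559372 for shCDK12 + OHT. The lists were not scaled to library size, so that reads of a single place also carry differences in depth between conditions. The part of depth in the number, width and covered length of called regions was not tested. A uniform difference in depth cancels in the difference between ends and interior, but an effect of depth on the calls need not.

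Chromosome arms end in telomeric repeats, which are flanked by subtelomeric sequence that is in part duplicated between chromosomes. Replication of a chromosome follows a program in which gene-rich, open chromatin is copied first and compact, gene-poor chromatin last. Hydroxyurea depletes the nucleotide pool, so that EdU stays close to the origins that fire first. Myc is a transcription factor with a known part in entry into S phase, and CDK12 is best known for sustaining the transcription of long genes, DNA repair genes among them.

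The ends were covered more densely than the interiors in every list. The length covered by ERRs near the ends was 38.2 Mb for shNT, 42.1 Mb for shNT + OHT, 38.3 Mb for shCDK12 and 42.3 Mb for shCDK12 + OHT, which is 29.4%, 32.4%, 29.5% and 32.6% of the 130 Mb. In the interiors of the same chromosomes the covered share was 13.96%, 15.5%, 14.3% and 17.99% in the same order. The ratio of ends to interior was thus 2.11 for shNT, 2.10 for shNT + OHT, 2.06 for shCDK12 and 1.81 for shCDK12 + OHT, lowest where both factors were combined. The end zones made up 6.83% of the summed length of ends and interiors but held 13.4%, 13.3%, 13.1% and 11.7% of the covered length. They held 16.3%, 17.2%, 15.6% and 14.1% of the reads in regions.

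The excess was not shared by all chromosomes. Ends were covered more than the interior on 11 of 15 chromosomes in shNT, shNT + OHT and shCDK12 and on 10 of 15 in shCDK12 + OHT. Chromosome 21 had the highest ratio in every list, at 8.14 for shNT, 7.50 for shNT + OHT, 7.75 for shCDK12 and 6.88 for shCDK12 + OHT. The lowest ratio was on chromosome 15 in the first 3 of these lists and, at 0.301, on chromosome 22 in shCDK12 + OHT. There a region that crossed the limit was counted with the interior. Pooled over chromosomes, long-arm ends were covered more than short-arm ends in each list, although among the 11 chromosomes with both ends the q end was the more covered on only 7, 6, 7 and 6. The q ends had 34.7% of their length covered for shNT, 37.7% for shNT + OHT, 33.7% for shCDK12 and 35.5% for shCDK12 + OHT. The p ends had 22.1%, 25.2%, 23.8% and 28.5%, so that the gap between arms was narrowest in shCDK12 + OHT. The arms were measured from unlike points, p ends from the first coordinate and q ends from the outermost region of any list. Sequence without regions beyond that point was left out for q ends only, which favours their coverage.

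**Figure D1:**
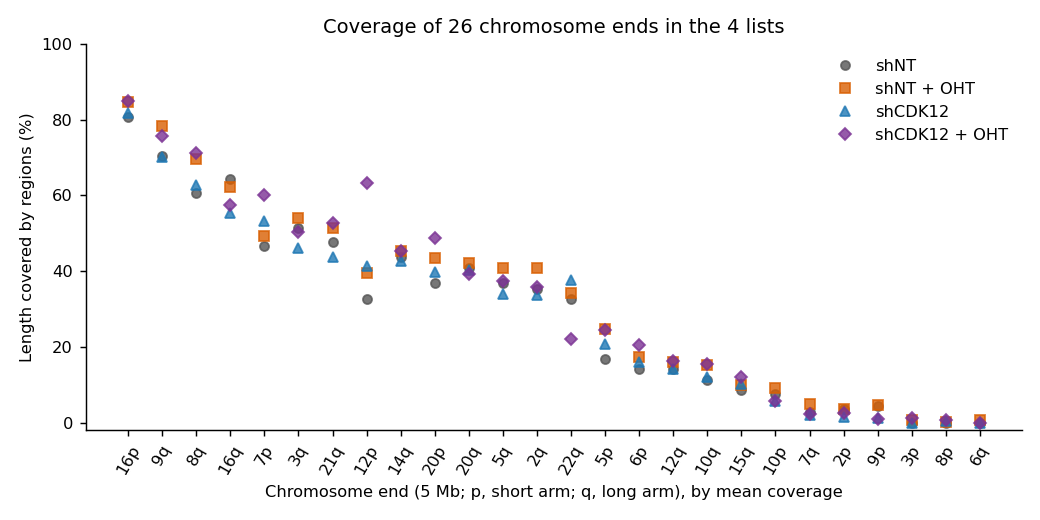
Covered share of each 5 Mb end zone (percent of its length, vertical axis) for the 26 ends (horizontal axis), with 1 point for each of the 4 merged lists. The 16p end lies above 80% in all lists, whereas 3p, 8p and 6q lie near 0.

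Single ends ranged from mostly covered to empty, and the 16p end came first in each of the 4 lists. The short arm of chromosome 16 was the most covered end, at 80.6% for shNT, 84.8% for shNT + OHT, 81.8% for shCDK12 and 85.0% for shCDK12 + OHT. The 9q end had 70.4%, 78.5%, 70.2% and 75.6%, the 8q end 60.7%, 69.5%, 62.6% and 71.2%, and the 16q end 64.4%, 62.3%, 55.4% and 57.5%. With regions divided at the limit, 16q had 73.5% in shNT and lay above 9q. At the other extreme, the 6q end held a region only in shNT + OHT, covering 0.696% of its 5 Mb. The 3p end had none without OHT, 0.776% in shNT + OHT and 1.14% in shCDK12 + OHT. The 8p end was empty in shNT and had 0.088%, 0.408% and 0.824% in shNT + OHT, shCDK12 and shCDK12 + OHT. The opposite ends of a chromosome could therefore differ widely, as for 8q and 8p or 9q and 9p, the latter at 4.35%, 4.54%, 1.27% and 1.06%. The median end had 32.6%, 36.8%, 33.9% and 30.1% covered. At least 50% was covered at 5 ends for shNT, 6 for shNT + OHT, 5 for shCDK12 and 8 for shCDK12 + OHT.

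By order along the GRCh38 assembly, the 8 outermost protein-coding genes of 16p in RefSeq include POLR3K, MPG and the embryonic globin gene HBZ. Those of 9q include CACNA1B, which encodes a neuronal calcium channel, and EHMT1, which encodes a histone methyltransferase. Of the nearly empty ends, 3p has among its 8 outermost the neural adhesion genes CHL1, CNTN6 and CNTN4, and 6q has TBP, which encodes the TATA-binding protein, and the proteasome subunit gene PSMB1. These names serve as orientation, since the lists are on hg19 and the overlap of regions with genes was not analysed here.

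Coverage was highest in the outermost 2 Mb and did not fall evenly from there. On long arms the distance was counted from the outermost region of any list, so that the first bin there held a region by definition. Between 0 and 1 Mb from the end, coverage was 36.9% for shNT, 40.7% for shNT + OHT, 37.5% for shCDK12 and 40.2% for shCDK12 + OHT, and between 1 and 2 Mb 38.7%, 41.5%, 37.2% and 39.8%. Between 2 and 3 Mb the share was lower, at 25.2%, 28.2%, 25.3% and 29.2%. Just inside the 5 Mb limit, at 4 to 5 Mb, it was 25.97%, 29.1%, 26.3% and 33.3%, and just outside, at 5 to 6 Mb, 19.4%, 21.8%, 18.5% and 25.3%. It reached 10.7%, 11.96%, 9.14% and 11.02% at 7 to 8 Mb and was again 24.7%, 26.4%, 25.9% and 30.1% at 12 to 13 Mb. The 5 Mb limit thus cut through a gradient rather than a border. Regions that crossed the limit were counted with the interior. They numbered 8 for shNT, 8 for shNT + OHT, 5 for shCDK12 and 10 for shCDK12 + OHT.

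**Figure D2:**
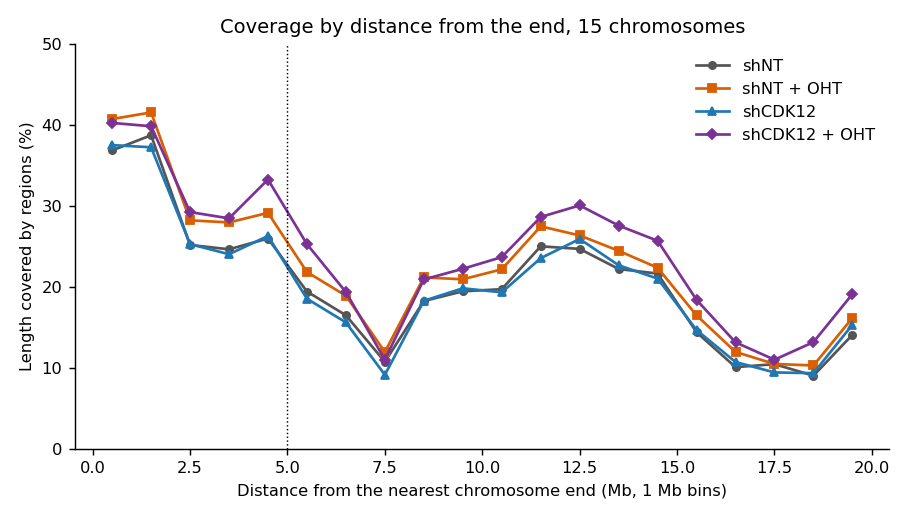
Covered share (percent of sequence, vertical axis) in 1 Mb bins against the distance from the chromosome end (Mb, horizontal axis), with 1 line for each of the 4 lists. All 4 lines are highest within 2 Mb of the end, dip at 7 to 8 Mb and rise again around 12 Mb. Long-arm ends are set at the outermost region of any list.

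The outermost region began at different coordinates in different p arms. On 7p it began 10 kb from the first coordinate and on 16p 60 kb from it, in all 4 lists. Such distances include any unsequenced bases at the start of the arm, which were not set apart. On 2p the outermost region of any list began 1574.4 kb in, on 6p 2663.6 kb and on 10p 3220 kb. For long arms the end was set at the outermost region of any list, so that no such distance can be given.

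ERRs near the ends were wider than those of the interior. Their median width was 102.4 kb for shNT, 91.2 kb for shNT + OHT, 70.2 kb for shCDK12 and 84.8 kb for shCDK12 + OHT, against 69.6, 57.6, 52.8 and 69.6 kb in the interior. The median was greater at the ends on 12 of 15 chromosomes for shNT, 11 for shNT + OHT, 14 for shCDK12 and 9 for shCDK12 + OHT. With OHT the ratio of ends to interior went from 1.47 to 1.58 in shNT cells and from 1.33 to 1.22 in shCDK12 cells. These directions depended on the zone and the chromosomes taken: within 2.5 Mb the ratio in shNT cells went from 1.58 to 1.41, and without chromosome 3 from 1.60 to 1.59. Regions were also more frequent near the ends, at 1.86, 2.11, 2.40 and 2.20 per Mb against 1.33, 1.61, 1.67 and 1.65. Width and number thus both contributed to the higher coverage.

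Very wide regions took a large part of the covered length near the ends. At least 500 kb wide were 10 of 242 regions in shNT (4.13%), 11 of 274 in shNT + OHT (4.01%), 9 of 312 in shCDK12 (2.88%) and 13 of 286 in shCDK12 + OHT (4.55%), against 1.44%, 1.68%, 1.21% and 2.02% in the interior. They made up 20.4%, 23.05%, 18.03% and 23.5% of the covered length near the ends and 9.37%, 12.03%, 9.79% and 13.4% in the interior. The widest region near an end was on 9q in the shNT lists. It spanned chr9:139216801-140233600 in shNT, 1016.8 kb with 98707 reads, and chr9:139216801-140529600 in shNT + OHT, 1312.8 kb with 318673 reads. In the shCDK12 lists the widest lay on 7p, at chr7:918001-2178400 in shCDK12 (1260.4 kb, 49056 reads) and chr7:912801-2208400 in shCDK12 + OHT (1295.6 kb, 99509 reads). Neither place was gained or lost. The 9q stretch that ends at 140529600 had 1278.8 kb covered for shNT, 1312.8 kb for shNT + OHT, 1240.4 kb for shCDK12 and 1206.8 kb for shCDK12 + OHT. It was listed as 2, 1, 5 and 3 regions in the same order.

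The regions near the ends held more reads per kb in sum, but not on every chromosome. Pooled density was 46.8 reads per kb for shNT, 129 for shNT + OHT, 34.1 for shCDK12 and 61.4 for shCDK12 + OHT, against 37.0, 95.4, 27.7 and 49.6 in the interior. The ratio was 1.27, 1.35, 1.23 and 1.24, and in shNT it lay between 1.17 and 1.30 when any 1 chromosome was left out. This pooled ratio was highest in regions of 250 kb and over, at 1.17, 1.21, 1.27 and 1.29. In those of 100 to 250 kb it was 1.04, 1.09, 0.98 and 0.98, and in those of 50 to 100 kb 0.931, 0.908, 0.911 and 0.984. Taken from the median region instead, the ratio at 50 to 100 kb was above 1, at 1.07, 1.08, 1.04 and 1.05. Chromosome by chromosome, however, the pooled ratio was above 1 on 7, 8, 8 and 7 of 15 chromosomes, with a median of 0.942, 1.05, 1.04 and 0.956. Chromosome 8 had the highest ratio in every list, at 2.68, 2.74, 2.40 and 2.36, and chromosome 6 the lowest or second lowest, at 0.581, 0.572, 0.620 and 0.684. The 8q end alone had 83.2, 217, 55.9 and 96.1 reads per kb. In 3 of 4 lists the densest region near an end that was at least 10 kb wide lay there: chr8:141968401-142270000 in shNT with 192 reads per kb, chr8:145501601-145788800 in shNT + OHT with 508, and chr8:145502801-145783600 in shCDK12 with 103. In shCDK12 + OHT it was chr7:2409201-2783200, with 181 reads per kb. U2OS cells carry an altered set of chromosomes, and the copy number of these ends was not analysed here, so that its part in the read density was not tested.

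**Figure D3:**
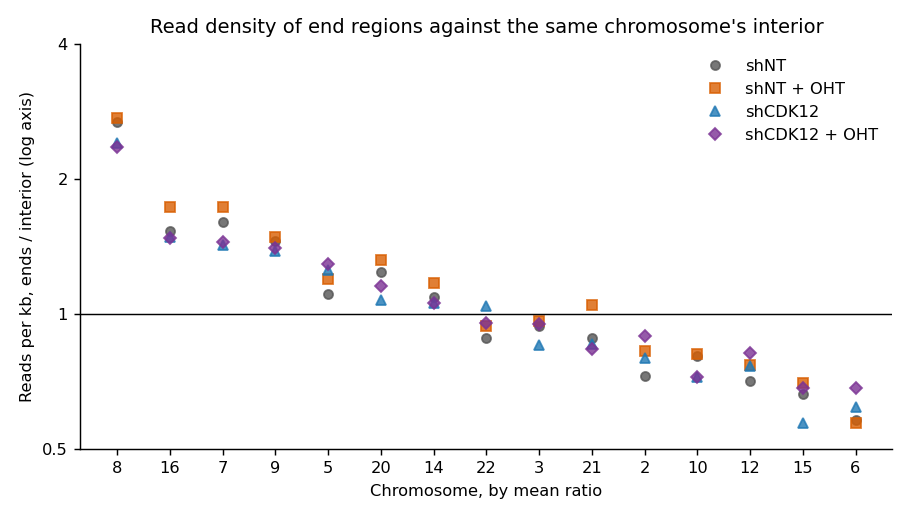
Reads per kb of regions near the ends divided by reads per kb of interior regions of the same chromosome (log axis), for 15 chromosomes and 4 lists. Points lie on either side of 1, and chromosome 8 stands highest in all lists, between 2.36 and 2.74.

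With the non-targeting hairpin, more length was covered with OHT, to the same relative extent near the ends as in the interior. Reads in regions also differed, at 51968675 for shNT + OHT and 19042128 for shNT. The part of depth in the rise was not tested. Regions near the ends covered 3.94 Mb more in shNT + OHT than in shNT, a rise of 10.3%, and interior regions 26.8 Mb more, a rise of 10.8%. Coverage rose at 25 of 26 ends. The 3p, 6q and 8p ends rose from none, and among the others 7q had the highest log2 change, 0.76. The fall at 16q, from 64.4% to 62.3%, depended on regions that crossed the limit: with regions divided there, 16q went from 73.5% to 74.9%, and all 26 ends rose. Nearly all regions of shNT were found again, meaning that they shared 1 bp or more with a region of that list: 240 of 242, or 99.2% (97.0 to 99.8). The 2 that were absent compare with 1.6% absent in the whole shNT list. Conversely 52 of 274 regions of shNT + OHT (18.98%) were absent from shNT, against 21.2% of its whole list. These additional regions were narrow, with a median of 32.4 kb against 119.8 kb for regions found in both, and the widest was chr5:1350401-1426800 (76.4 kb). Of the bases near the ends that were uncovered in shNT, 5.43% were covered with OHT, against 2.51% in the interior, and of the covered bases 1.80% were lost, against 4.80%.

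With CDK12 silenced, about the same length was added with OHT near the ends but far more in the interior. Reads in regions were 30559372 for shCDK12 + OHT and 14926387 for shCDK12, and the part of depth was again not tested. The gain near the ends was 3.98 Mb, or 10.4%, and that in the interior 65.2 Mb, or 25.7%, a difference of -0.19 on the log2 scale. Division of the regions that crossed the limit at 5 Mb brought this to -0.14. The relative change was lower near the ends than in the interior on 14 of 15 chromosomes. Coverage rose at 21 ends, fell at 3 and was equal at 2. The 3p end rose from none. Among ends that already held a region, the highest change, 1.01 on the log2 scale, was at the nearly empty 8p end. The largest absolute rise was at 12p, from 41.5% in shCDK12 to 63.4% in shCDK12 + OHT. The lowest change was -0.78 at 22q, where a region that grew across the 5 Mb limit was counted with the interior. With regions divided at the limit 22q went from 37.8% to 41.2%. Of the bases uncovered before, 7.26% were gained near the ends and 4.92% in the interior, so that the lower relative gain stood beside a higher starting coverage.

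Most single regions were found again between the shCDK12 lists. Absent from shCDK12 were 37 of 286 regions of shCDK12 + OHT, with 87.1% found (82.7 to 90.5), against 15.5% absent in the whole list. Absent from shCDK12 + OHT were 11 of 312 regions of shCDK12, with 96.5% found (93.8 to 98.0), against 6.45% absent in the whole list. The widest region that appeared with OHT was chr22:47492801-47608800 (116 kb), which was also absent from shNT + OHT. Some regions of shCDK12 were joined: 47 regions near the ends of shCDK12 + OHT (16.4%) each overlapped at least 2 of shCDK12, against 11.3% in the interior. In shNT cells the corresponding count was 26 regions of shNT + OHT (9.49%), against 4.79% in the interior. The number of regions went from 312 to 286 with OHT in shCDK12 cells and from 242 to 274 in shNT cells, but with a common minimum score it rose in both, from 254 to 281 and from 242 to 258. Regions that matched 1 to 1 widened in both backgrounds by a small median at the ends, 0.04 on the log2 scale in 177 pairs of the shNT lists and 0.03 in 189 pairs of the shCDK12 lists. In the interior the medians were 0.00 and 0.15.

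**Figure D4:**
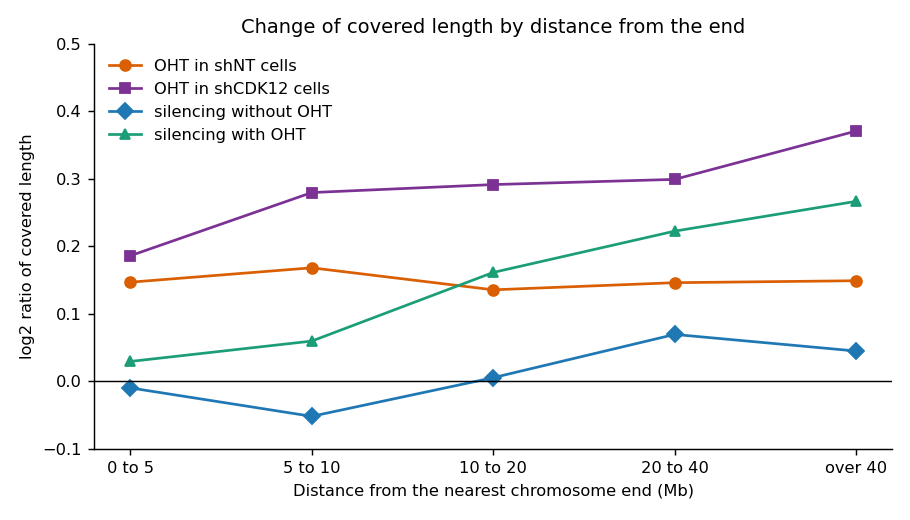
Log2 change of covered length (vertical axis) for 4 comparisons in classes of distance from the chromosome end (Mb, horizontal axis). For OHT in shCDK12 cells and for silencing in cells with OHT the change is lowest at 0 to 5 Mb, at 0.19 and 0.03, and highest beyond 40 Mb, at 0.37 and 0.27.

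Silencing of CDK12 left the covered length near the ends nearly unchanged in sum, in more and narrower regions. Without OHT the length went from 38.2 to 38.3 Mb, a change of 0.363%, against 2.51% in the interior. Coverage rose at 11 ends, fell at 13 and was equal at 2, and 8p was among those that rose, from none. Among ends with a region in both lists, 12p had the highest log2 change, 0.34, and 9p the lowest, -1.77. The number of regions rose from 242 to 312. The rise was smaller with a common minimum score, from 242 to 254, and in lists of equal size, from 242 to 257. Of the shNT regions near the ends, 42 (17.4%) overlapped at least 2 regions of shCDK12, against 9.32% in the interior. Those found in both lists were 232 of 242 shNT regions, or 95.9% (92.6 to 97.7), and 264 of 312 shCDK12 regions, or 84.6% (80.2 to 88.2). The 10 and 48 that were absent compare with 6.07% and 20.2% absent in the whole lists. The widest loss was chr9:4210001-4320400 (110.4 kb) and the widest gain chr7:4149201-4255600 (106.4 kb).

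In cells with OHT, silencing extended coverage in the interior but hardly near the ends. Regions near the ends covered 0.179 Mb more in shCDK12 + OHT than in shNT + OHT, a change of 0.424%, against 44.6 Mb or 16.2% in the interior. The difference of -0.21 on the log2 scale was -0.19 with regions divided at the limit and lay between -0.26 and -0.19 when any 1 chromosome was left out. The interior rose on 15 of 15 chromosomes, and the relative change was lower at the ends than in the interior on 11 of 15. Coverage rose at 13 ends and fell at 13. The small sum thus hid opposite changes, of which the rise at 12p from 39.6% to 63.4% was the largest. With chromosome 12 left out the covered length near the ends was 0.974 times that of shNT + OHT. Regions found again numbered 239 of 274 from shNT + OHT, or 87.2% (82.8 to 90.7), and 255 of 286 from shCDK12 + OHT, or 89.2% (85.0 to 92.3). Of the whole lists 11.5% and 14.8% were absent from the other, against 35 and 31 regions near the ends.

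The contrast between ends and interior in the comparisons with shCDK12 + OHT grew across broad classes of distance. For silencing with OHT the log2 change of covered length was 0.03 within 5 Mb of an end, 0.06 at 5 to 10 Mb, 0.16 at 10 to 20 Mb, 0.22 at 20 to 40 Mb and 0.27 farther in. For OHT in shCDK12 cells the values in the same classes were 0.19, 0.28, 0.29, 0.30 and 0.37. For OHT in shNT cells they were level, at 0.15, 0.17, 0.14, 0.15 and 0.15, and for silencing without OHT they lay between -0.05 and 0.07. The shCDK12 + OHT list is common to the 2 comparisons that rose across the classes. In bins of 1 Mb these comparisons did not rise evenly. For OHT in shCDK12 cells the change was 0.45 at 5 to 6 Mb but 0.17 at 9 to 10 Mb. For silencing with OHT it was 0.21 at 5 to 6 Mb but -0.12 at 7 to 8 Mb.

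Most places near the ends were early replicating in all 4 conditions. When overlapping regions of the 4 lists were joined, 284 places resulted near the ends, of which 188 (66.2%, with 90.6% of the length) were held by every list. In the interior 1827 of 3119 places (58.6%, with 81.6% of the length) were. Places that appeared only in shCDK12 + OHT were 19 near the ends (6.69%) and 317 in the interior (10.2%), and those only in shNT + OHT were 22 (7.75%) and 136 (4.36%). Silenced cells with and without OHT shared 10 places near the ends (3.52%) that neither shNT list held, against 145 (4.65%) in the interior.

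Individual ends showed these changes most clearly. On 7p, the place chr7:3909601-4270000 had 41.2 kb covered for shNT, 56.4 kb for shNT + OHT, 231.2 kb for shCDK12 and 360.4 kb for shCDK12 + OHT, so that it widened with silencing and further with OHT. On 9p, the places chr9:4210001-4320400 and chr9:3840401-3896000 were held by both shNT lists and by neither shCDK12 list. The 12p end changed most in sum. It held 13 regions in shNT and 19 in shNT + OHT, and with CDK12 silenced 21 without and 24 with OHT. In the same order its covered share was 32.7%, 39.6%, 41.5% and 63.4%. Of its places, 7 were held by the shCDK12 + OHT list alone, the widest being chr12:4203601-4296400 (92.8 kb) and chr12:4853601-4940800 (87.2 kb). Others grew: chr12:3614401-3814400 had none in shNT and 42 kb in shNT + OHT, and with CDK12 silenced 50 kb without and 199.6 kb with OHT. The 10p end went the other way with silencing. Its place chr10:3785601-3907200 had 115.2 kb covered with 3035 reads in shNT and 121.6 kb with 9729 reads in shNT + OHT, but 51.2 kb with 892 reads in shCDK12 and 49.2 kb with 1920 reads in shCDK12 + OHT. The wide places of 16p and 8q were more level. On 16p, chr16:267201-1674800 had 1317.2, 1382.4, 1316.4 and 1371.6 kb. On 8q, chr8:144185601-145187600 had 934.4, 991.2, 990.8 and 1002 kb.

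**Figure D5:**
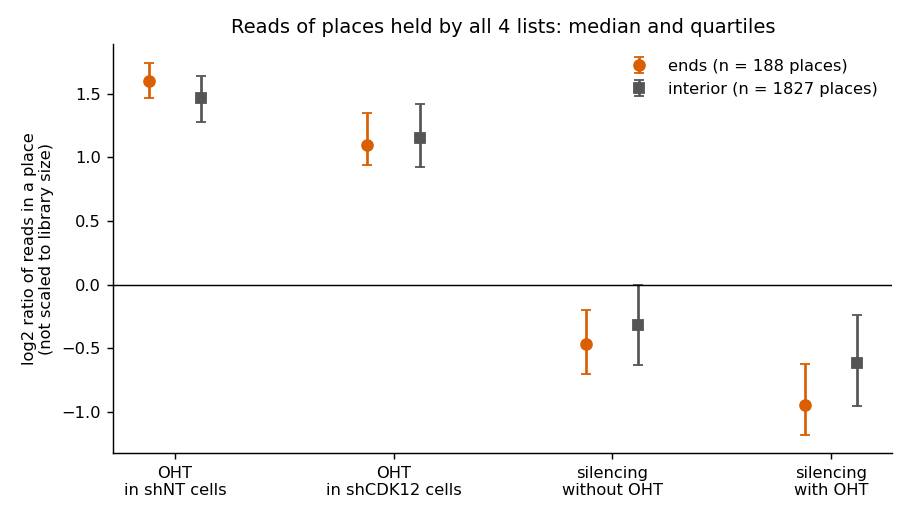
Log2 change of reads in places held by all 4 lists, near the ends (188 places) and in the interior (1827 places), for 4 comparisons. The medians near the ends are 1.60, 1.09, -0.47 and -0.94 and those of the interior 1.47, 1.15, -0.32 and -0.62, with no scaling for library size.

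In the places held by every list, reads near the ends moved differently from those of the interior. With OHT in shNT cells reads rose in 188 of 188 end places, by a median of 1.60 on the log2 scale (quartiles 1.47 to 1.74), against 1.47 in the interior. A uniform scale of library size cancels in the difference of 0.13, but not in the values themselves. Reads were counted only inside called regions, so that an effect of depth on the calls was not removed. With OHT in shCDK12 cells the median was 1.09 against 1.15, a difference of -0.06. With silencing without OHT it was -0.47 against -0.32, a difference of -0.15, and with silencing in the presence of OHT -0.94 against -0.62, a difference of -0.32.

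End places were wider than interior ones, with medians of 161.4 and 104 kb. For silencing with OHT, the difference between ends and interior was present in each width class, at -0.29 in places under 100 kb, -0.27 in those of 100 to 250 kb and -0.31 in those of 250 kb and over. Of 21 ends with at least 3 such places, 18 were below the interior of their own chromosome and 3 above. The lowest was 10p, at -1.72 over 3 places, and the highest was 12p, at 0.44 over 10 places. For silencing without OHT the tally was near even, with 9 ends above their interior, 12 below and a median of -0.06. For OHT in shNT cells 17 of the 21 ends lay above their interior and 4 below. For OHT in shCDK12 cells 7 lay above and 14 below.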

How the data were processed

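EdU-HU-seq data of U2OS-MycER cells were taken as 4 deposited lists of broad regions, 1 per condition, made by the authors on the merged reads of 3 samples. Each row holds a position, the deposited read count (whole reads, not scaled to library size) and a deposited score, which served only for 2 alternatives that rank or filter regions. Per the submitters' processing notes the tools were BWA 0.6.2, SAMtools and SICER and the builds hg19 and mm10, with no role given, and coordinates were read as hg19. Region limits are multiples of 400 bp, and no gap between regions is under 4400 bp. A reference of hg38 was at hand, so neither genes nor sequences were read at the regions.

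Coordinates are counted from 1. Long-arm ends were set at the largest coordinate of any list. The length of the interior was everything more than 5 Mb from an end of the same chromosomes. On the acrocentric chromosomes it was measured from the smallest start in any list. Regions that crossed the limit were counted with the interior. Read density is reads over covered kb. With 1 list per condition no test was made. The 15 chromosomes, the ends and the named regions were chosen with earlier results of these data known. Named regions were, in each list, the widest and the densest of at least 10 kb, and in each comparison the widest that was absent from the other list; places named beside them were picked after their values were seen. No comparison of single replicates was possible, and full library sizes were not used here. The functions were tested on simulated data. Computations ran in Python 3.11.15 with pandas 2.3.3, numpy 2.4.6, matplotlib 3.10.9 for plots and scipy 1.17.1 for intervals.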

Additional observations from a re-analysis of the deposited data

Results flagged for a closer look

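The effect of OHT on regions near the ends went in opposite directions in the 2 hairpin backgrounds for a pair of measures, and neither difference was tested, since each condition has 1 merged list. The number of regions near the ends rose by 32 with OHT in shNT cells and changed by -26 in shCDK12 cells. With a common minimum score it rose in both, from 242 to 258 and from 254 to 281, and in lists of equal size it was 242 in both shNT lists. The ratio of median widths at the ends and in the interior showed a log2 change of 0.11 with OHT in shNT cells, against -0.13 in shCDK12 cells. The opposite directions were not seen in a zone of 2.5 Mb, where the ratio went from 1.58 to 1.41 in shNT cells and from 1.40 to 1.11 in shCDK12 cells. They were also not seen without chromosome 3 (1.60 to 1.59 in shNT cells), without chromosome 20 (1.51 to 1.47 in shNT cells) or as the median over 15 chromosomes (1.18 to 1.21 in shCDK12 cells).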

How the results depend on the processing

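With 1 merged list per condition, no value has a replicate error, and leaving out a replicate was not possible. No paired analysis was possible because the merged lists carry no replicate. Of 984 values over 29 alternatives, 927 kept their direction and size, 33 moved and 24 changed direction, most of them small differences near 0. The higher coverage near the ends and its lower relative gain in shCDK12 + OHT kept their direction in every alternative run. The cause of the changes below was not tested.

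A zone of 2.5 Mb gave 131, 151, 163 and 157 regions in shNT, shNT + OHT, shCDK12 and shCDK12 + OHT, and a zone of 10 Mb 423, 504, 531 and 495. All 22 autosomes gave 376, 434, 473 and 441. At 10 Mb the coverage ratio of shCDK12 was 1.63.

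The ratio of covered length near the ends, silenced over not silenced without OHT, was 0.980 at 2.5 Mb, 0.984 at 10 Mb, 0.996 over 22 autosomes, 0.962 with a common minimum score, 0.964 in lists cut to 3874 regions, 0.993 with regions divided at the limit, and 0.996, 0.992 and 0.997 without chromosome 7, 12 or 22. With OHT it was 0.988 over 22 autosomes, 0.978 in lists of equal size, and 0.994 and 0.974 without chromosome 7 or 12.

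The difference of ends and interior in covered length with OHT in shNT cells was 0.0106 at 10 Mb, 0.01001 over 22 autosomes, 0.0128 with the common minimum score, 0.0374 in lists of equal size and 0.0213 without chromosome 16. For silencing without OHT it was 0.0176 with the common minimum score, 0.0134 in lists of equal size and 0.0432 as the median over 15 chromosomes.

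The ratio of read density as the median over 15 chromosomes, an alternative chosen after seeing the data, was 0.942 in shNT, 1.05 in shNT + OHT and 0.956 in shCDK12 + OHT. With the median over regions, the density difference was 0.14 for OHT in shCDK12 cells and -0.19 for silencing without OHT. For OHT in shCDK12 cells it was -0.000641 without chromosome 20.

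The share of regions found again was 89.0% for shCDK12 in shNT and 95.5% for shCDK12 + OHT in shNT + OHT at 2.5 Mb. With the common minimum score it was 79.4% for shCDK12 + OHT in shCDK12, 99.2% in reverse and 94.9% for shCDK12 in shNT. In lists of equal size it was 89.3% for shNT + OHT in shNT, 94.2% for shCDK12 in shNT and 93.3% for shCDK12 + OHT in shNT + OHT, and without chromosome 12 100% for shNT in shNT + OHT. With a reciprocal overlap of 50% it was 75.2% for shNT + OHT in shNT and 85.1% in reverse, 75.9% for shCDK12 + OHT in shCDK12 and 69.6% in reverse, 66.7% for shCDK12 in shNT and 85.5% in reverse, and 71.7% for shCDK12 + OHT in shNT + OHT and 74.8% in reverse.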

Other observations

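A few very narrow regions near the ends held many reads and recurred in every list. At chr3:196625601-196626000, a region of 0.4 kb held 213 reads for shNT, 408 for shNT + OHT, 213 for shCDK12 and 372 for shCDK12 + OHT. At chr2:2299201-2299600 the same width held 133, 353, 101 and 186 reads, and at chr7:10001-10400, the outermost window of 7p, 190, 252, 204 and 170. At chr7:10001-10400 the reads were fewer in shCDK12 + OHT than in shCDK12, whereas reads rose with OHT in 187 of 188 end places held by every list. Regions at most 2 kb wide numbered 4 for shNT, 10 for shNT + OHT, 10 for shCDK12 and 5 for shCDK12 + OHT near the ends.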
